A study of Rhizophagus irregularis DAOM 181602=DAOM 197198 with 30 samples.

Results

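The gene models described here carry the wording of aminoacyl-tRNA synthetases or of translation initiation, elongation or release factors in their domain, functional or best-hit descriptions. The rule found 229 of 30282 gene models, and 51 were dropped because their text also named argonaute or Piwi proteins, kinases, guanine nucleotide exchange or ribosome biogenesis. The remaining 178 models comprised 50 synthetases, 74 translation factors and 54 models that matched through a shared domain name or a description of another protein. The 124 synthetases and factors are the subject of the text, and the 54 other matches are accounted for near the end.

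The spores came from Rhizophagus irregularis strain DAOM197198, an arbuscular mycorrhizal fungus that exchanges soil minerals for plant carbon. In the time course, 80000 spores per culture germinated for 2 d in the dark in liquid medium under 2% CO2. Strigolactones are plant root signals, and their synthetic analogue GR24 was then added to 1e-06 M, while control cultures got only the solvent, acetone, 1 in 1000. Collection followed after 1 h, 2 d, 7 d and 14 d. The libraries analysed here numbered 3 GR24 and 2 acetone at 1 h, 2 and 3 at 2 d, 2 and 2 at 7 d, and 3 and 3 at 14 d. In a separate set, 60000 spores lay for 14 d on cellophane over carrot hairy roots (3 libraries) or without roots (2 libraries). The comparisons ask how strigolactone and root exudates bear on transcript levels in the fungus in the early steps of symbiosis. Whether the replicates of a group were independent cultures is not stated, and the tests speak only of the scatter among these libraries, which may be technical.

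A synthetase joins an amino acid to its tRNA, and a separate enzyme or pair of subunits serves each amino acid in the cytosol, often with a second set for the mitochondrion. Initiation factors (eIF) bring the small ribosomal subunit and the initiator tRNA to the start codon, elongation factors (eEF) move the ribosome along the message, and release factors (eRF) free the finished protein.

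Gene reads per library ran from 5786080 to 11812317. Levels below are RPKM, reads scaled by model length and by library size, and a ± after a level is an SD across libraries. Fold changes are log2 values with their standard error, tested with edgeR and called at a Benjamini-Hochberg adjusted p under 0.05 over all models tested. Where the groups of a called model are said not to overlap, this describes the libraries that the test used. It adds no support to the call. RPKM is a share of the messenger RNA in a library, and in RNA from whole cultures fewer cells of a kind and less RNA per cell cannot be told apart. The 19 models described as mitochondrially encoded, a sign of RNA composition, took 0.01348% to 0.02233% of reads at 7 d in both treatments and in GR24 at 2 d, against 0.00094% to 0.00752% in all other libraries. Their part in the results was not tested.

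Factors were the more abundant class. The median of mean RPKM over the 25 libraries was 88.6 for the 74 factors and 45.0 for the 50 synthetases, against 6.15 for the 23128 models with a read. The elongation factor eEF1A (model 348225), which delivers charged tRNAs to the ribosome, led at 2725 RPKM. It was followed by eIF5A (124122, 750.0 RPKM), which helps the ribosome through difficult peptide bonds, and by eIF1 (341290, 614 RPKM), which acts in start codon selection. The largest subunit of eIF3, eIF3a (309499), stood at 597 RPKM, and eEF1B gamma (350072), part of the exchange factor of eEF1A, at 574 RPKM. All 10 subunits from eIF3a to eIF3j were present, with a median of 153 RPKM, as were all 3 subunits of eIF2 and all 5 of its exchange factor eIF2B, whose median was 57.2 RPKM.

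Synthetases for all 20 amino acids were found. The highest was a phenylalanyl-tRNA synthetase (PheRS, model 306355) at 197 RPKM, followed by ProRS (39378, 168 RPKM), ArgRS (78933), GlyRS (326192, 131 RPKM) and AspRS (296863, 124 RPKM). The 18 synthetases that their text places in an organelle had a median of 13.6 RPKM against 82.4 RPKM for the other 32, and the 12 organelle-type factors had a median of 29.4 RPKM. The organelle IleRS wording was spread over 9 models of 219 to 1271 bases, whereas the other IleRS (17514) was 1 model of 3165 bases.

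**Figure D1:**
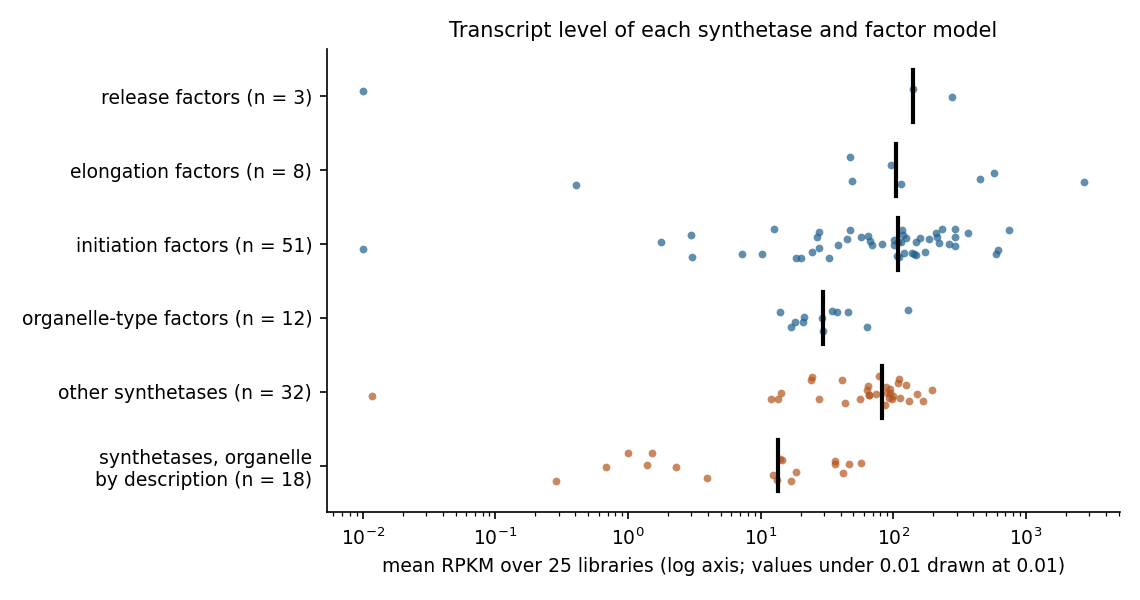
Mean RPKM over 25 libraries of each of the 124 synthetases and factors on a log axis, by class, with the class median as a black line. Organelle synthetases (median 13.6) and organelle-type factors (median 29.4) lie below the other synthetases (82.4), and eEF1A is the point farthest to the right.

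Most of the tested members differed between 1 h and 14 d after acetone or GR24 was added, and fewer passed in any treatment comparison. These counts come from unlike fits: time contrasts used the 20 time-course libraries together, and each treatment comparison its own. In the acetone controls, 52 of 72 tested factors were lower and 9 higher at 14 d than at 1 h, and 20 of 45 tested synthetases were lower and 5 higher. Over all models tested, 53.0% passed this test, 26.7% as lower and 26.3% as higher. The median log2 fold change was -0.39 for factors and -0.19 for synthetases, against 0.01 for all models tested.

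The elongation factors fell early. The values of eEF1A were 3852 and 3767 RPKM in the 2 acetone libraries at 1 h, 2840, 2852 and 2703 at 2 d, 2781 and 2918 at 7 d, and 2535, 2552 and 2374 at 14 d. Every library from 2 d onward lay below both libraries at 1 h, and the change from 1 h to 14 d was -0.61 ± 0.06 (adjusted p = 2.03e-10, edgeR). The translocation factor eEF2 (40491) went from 649 and 623 RPKM at 1 h to 391, 423 and 402 RPKM at 14 d, without overlap (-0.65 ± 0.06, adjusted p = 8.37e-11, edgeR). The ribosome rescue type factor Hbs1/eEF1A-like (73901) and eEF1B gamma fell as well, by 0.61 and 0.59 on the log2 scale. Of the 8 elongation factors, 6 fell and 1 rose, an EF-3b type ABC ATPase (13972, 0.28 ± 0.08, adjusted p = 0.00543, edgeR).

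Initiation factors moved the same way, with exceptions inside complexes. Of 50 tested, 39 fell and 5 rose between 1 h and 14 d, with a median of -0.41. The class holds every factor not sorted elsewhere, among them eIF5A, eIF6 and an eIF4E-binding protein. An eIF4AIII type helicase (338896), also placed here, was 1 of the 5 that rose. All 10 eIF3 subunits passed the test, 9 as lower and 1 as higher. The subunit eIF3e (156654) went from 169 and 171 RPKM at 1 h to 95.2, 90.9 and 86.6 RPKM at 14 d. Its groups did not overlap, and the change was -0.90 ± 0.06 (adjusted p = 7.34e-14, edgeR). The scaffold subunit eIF3c (337926) held 162 and 166 RPKM at 1 h and 107, 111 and 114 RPKM at 14 d, again without overlap (-0.56 ± 0.06, adjusted p = 2.07e-09, edgeR).

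The exception in the complex was eIF3a, its RNA-binding scaffold. Its values were 477 and 459 RPKM at 1 h, 513, 481 and 494 at 2 d, 659 and 689 at 7 d, and 774, 728 and 720 at 14 d. All libraries from 7 d onward lay above those of 1 h and 2 d, and the change from 1 h to 14 d was 0.67 ± 0.06 (adjusted p = 2.96e-11, edgeR). A single model of the cap-binding eIF4E family (348654) rose further, from 137 and 125 RPKM at 1 h to 253, 255 and 253 RPKM at 14 d. Its change was 0.96 ± 0.06 (adjusted p = 1.59e-14, edgeR). Among the other 6 eIF4E family models, 4 fell and 2 did not pass the test. The largest fall of these was in model 77710, from 174 and 177 RPKM to 83.7, 94.9 and 89.7 RPKM (-0.96 ± 0.10, adjusted p = 1.35e-09, edgeR).

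The 3 subunits of eIF2, which carries the initiator tRNA, all fell: beta (346988) by 0.81, alpha (338030) by 0.72 and gamma (346054) by 0.33 on the log2 scale. In eIF2B, 4 of 5 subunits fell, led by beta (345721, -1.01 ± 0.09, adjusted p = 5.32e-11, edgeR), and gamma (39642) had -0.18 ± 0.11 (adjusted p = 0.172, edgeR). The most abundant eIF4A helicase (39752), which unwinds the leader of the message, went from 599 RPKM in both libraries at 1 h to 294, 308 and 287 RPKM at 14 d (-1.01 ± 0.06, adjusted p = 4.38e-16, edgeR). Its libraries at 2 d (342, 337 and 350 RPKM) had already left the range of 1 h. The larger changes on the log2 scale were in models with few reads: an eIF4G family model (4059) held 1.42 and 2.60 RPKM at 1 h and 0.302, 0.205 and 0.0895 RPKM at 14 d (-3.35 ± 0.72, adjusted p = 0.000201, edgeR).

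The stop codon recognition factor eRF1 (136925) had 187 and 180 RPKM at 1 h and 108 RPKM in each of the 3 libraries at 14 d (-0.76 ± 0.06, adjusted p = 3.76e-12, edgeR). Its partner GTPase eRF3 (339613) had 255 and 252 RPKM at 1 h and 291, 269 and 279 RPKM at 14 d (0.14 ± 0.06, adjusted p = 0.0447, edgeR), and in the GR24 libraries it did not pass (0.09 ± 0.05, adjusted p = 0.131, edgeR). A mitochondrial class I release factor (20334) rose from 32.0 and 30.5 RPKM to 56.2, 50.3 and 56.4 RPKM (0.80 ± 0.11, adjusted p = 3.65e-07, edgeR), while 6 of the 12 organelle-type factors fell.

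**Figure D2:**
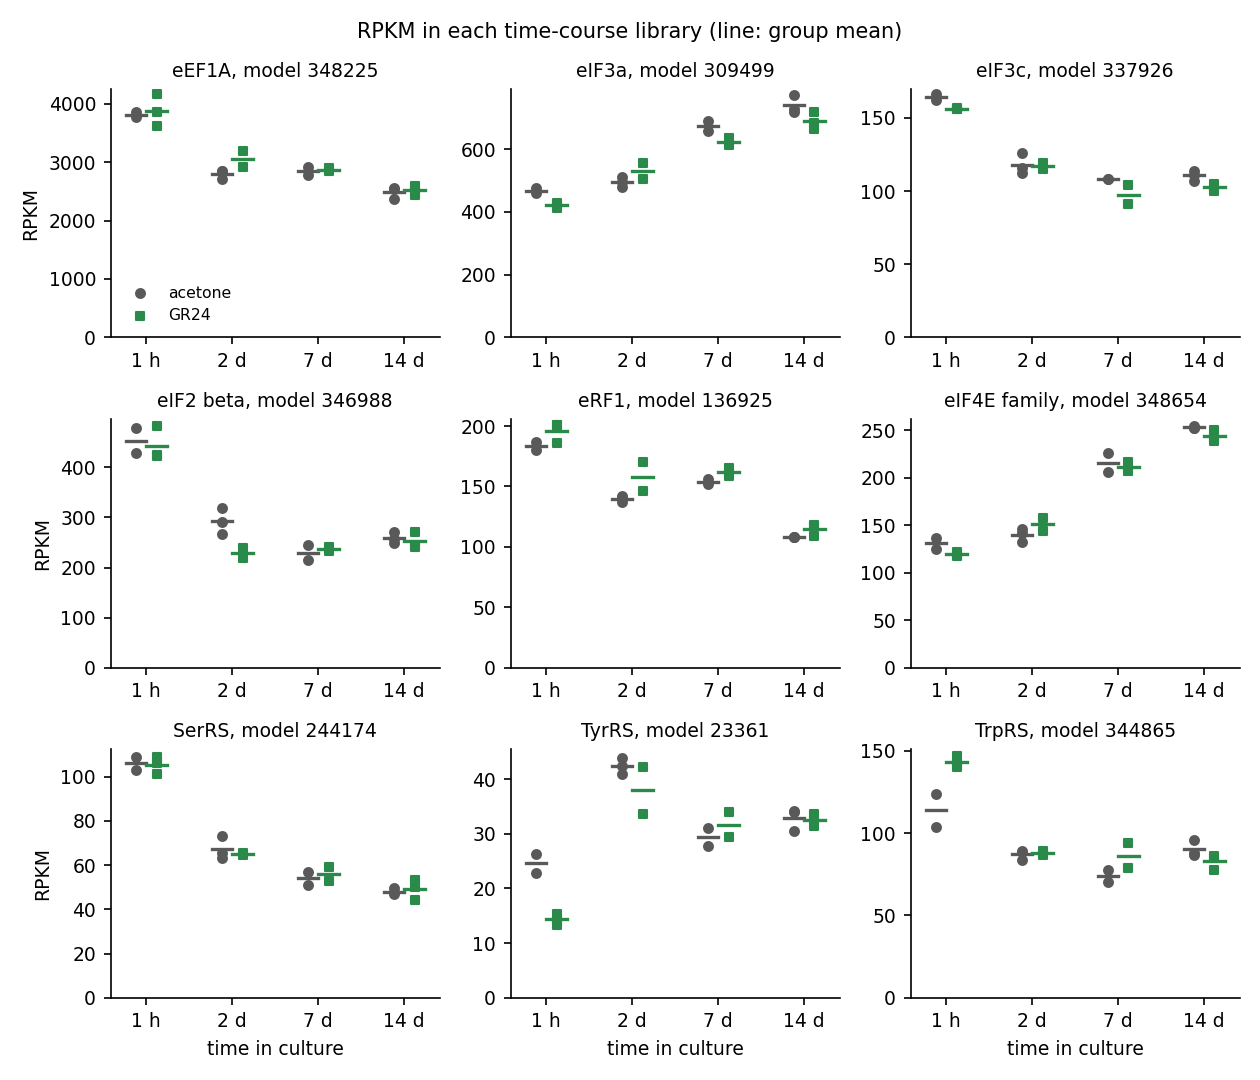
RPKM in each time-course library for 9 members, with acetone libraries as grey circles, GR24 libraries as green squares and group means as lines. The times, labelled as time in culture, count from the addition of acetone or GR24. The axes start at 0; eIF3a and eIF4E model 348654 are highest at 14 d, whereas eEF1A, eIF3c, eRF1 and SerRS are highest at 1 h.

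Among synthetases 20 fell, and SerRS fell furthest of those named here. The cytosolic SerRS (244174) had 109 and 103 RPKM at 1 h, 63.2, 73.1 and 65.3 at 2 d, 56.8 and 51.1 at 7 d, and 47.8, 46.8 and 49.5 at 14 d. The groups at 1 h and 14 d lay far apart, and the change was -1.14 ± 0.08 (adjusted p = 1.36e-13, edgeR). AsnRS (338696) fell by 0.72 and HisRS (144798) by 0.71 on the log2 scale. The 5 synthetases that rose included PheRS (121432, 0.49 ± 0.17), MetRS (23631, 0.38 ± 0.09) and ProRS (134278, 0.24 ± 0.10), all 3 described as organelle enzymes, and TyrRS (23361, 0.42 ± 0.12), whose call was lost without acetone replicate 2 at 1 h. The last was CysRS (341022, 0.18 ± 0.07, adjusted p = 0.0308, edgeR). Another TyrRS model (345470) was among the 20 that fell.

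By step, factors fell mainly between 1 h and 2 d, when 36 of 72 were lower and 2 higher, and 18 of 45 synthetases were lower and 3 higher (39.4% of all models passed, 18.7% as lower). Between 2 d and 7 d, 17 of 45 synthetases were lower and 1 higher, and 10 of 72 factors were lower and 4 higher (25.0% of all models passed, 13.0% as lower). HisRS held 76.8, 96.4 and 81.7 RPKM at 2 d and 51.6 and 48.8 RPKM at 7 d (-0.77 ± 0.10, adjusted p = 1.16e-06, edgeR). Without acetone replicate 2 at 7 d, 28 in place of 52 of the 178 models passed this step. Mitochondrially encoded models rose in the same step, 13 of 16 tested, with a median of 1.88.

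Between 7 d and 14 d all 10 synthetases that passed were higher, whereas 11 factors were higher and 10 lower (21.8% of all models passed, 10.4% as higher). MetRS had 35.5 and 36.0 RPKM at 7 d and 50.3, 46.4 and 49.1 RPKM at 14 d (0.45 ± 0.09, adjusted p = 0.000289, edgeR), and CysRS had 66.7 and 64.7 RPKM and then 82.6, 81.9 and 86.1 RPKM (0.35 ± 0.07, adjusted p = 0.000475, edgeR). In neither did the groups overlap. The count of 50 among the 178 models came to 29 and 21 without acetone replicate 1 or 2 at 7 d and to 31 without acetone replicate 3 at 14 d. Mitochondrially encoded models moved the other way, with 13 of 16 lower and a median of -2.06. Consecutive steps share the libraries of the middle time.

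The summed RPKM of the factors was 4.79 times that of the synthetases in acetone at 1 h, 4.23 times at 2 d, 4.74 times at 7 d and 4.21 times at 14 d. Between 1 h and 14 d the factor sum went from 15463 ± 324 (n = 2) to 11542 ± 61.2 (n = 3), and the synthetase sum from 3232 ± 64.5 to 2744 ± 23.6. Neither sum overlapped between these times. The sums are given as a description, without a test.

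The GR24 libraries hold the same contrast in separate samples. There, 46 of 72 factors were lower and 8 higher at 14 d than at 1 h, and 14 of 45 synthetases were lower and 9 higher, where 61.0% of all models passed, 30.4% as lower. All 46 factors lower in GR24 were also among the 52 lower in acetone (88.5% of these), and 13 synthetases were lower in both, 65% of those lower in acetone and 92.9% of those lower in GR24. No synthetase or factor was called in opposite directions (0 of 117 tested), where 103 of all 15712 models tested were. Over all models, 3518 were lower in both, 84% of the acetone and 73.6% of the GR24 list. In GR24, eIF3a changed by 0.71 ± 0.05 and eIF4E model 348654 by 1.03 ± 0.06, SerRS by -1.09 ± 0.07 and eRF1 by -0.77 ± 0.06. 

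**Figure D3:**
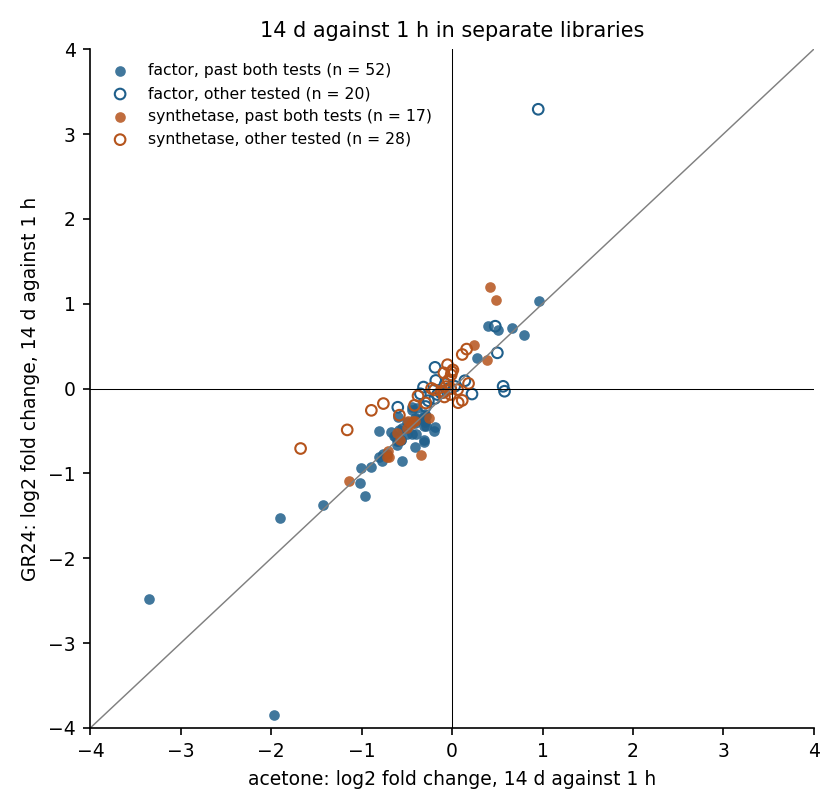
Log2 fold change of 14 d against 1 h for the 72 factors (blue) and 45 synthetases (orange) tested, in acetone libraries on the horizontal axis and GR24 libraries on the vertical axis; filled points passed both tests and the grey line marks equal values. The 52 factors and 17 synthetases that passed both lie where both values are negative or both positive.

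Few members passed in the comparisons of GR24 with acetone. After 1 h, 6 of 71 tested factors were called, all higher, and 1 of 45 synthetases was higher and 2 lower, where 10.4% of all models passed, 7.05% as higher and 3.39% as lower. The median was -0.03 for factors, -0.07 for synthetases and -0.01 for all models. The shares of the members called, 8.45% for factors and 6.67% for synthetases, were no larger than that of all models.

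The largest change among the synthetases and factors that passed was in 1 of the 3 models of TyrRS, which charges tyrosine tRNA. This was model 23361. The others, 345470 (-0.18 ± 0.07, adjusted p = 0.118, edgeR) and 39320 (-0.13 ± 0.10, adjusted p = 0.5, edgeR), did not pass. Model 23361 had 22.9 and 26.3 RPKM in acetone and 14.3, 13.4 and 15.3 RPKM in GR24 at 1 h, without overlap (-0.78 ± 0.15, adjusted p = 0.000512, edgeR). It passed the test without any single library. TrpRS (344865) had 124 and 104 RPKM in acetone and 140, 147 and 142 RPKM in GR24 (0.33 ± 0.08, adjusted p = 0.00748, edgeR), again without overlap, but not past the test without acetone replicate 3. The other TrpRS model, the organelle enzyme 40428, leaned the other way and did not pass (-0.30 ± 0.16, adjusted p = 0.279, edgeR). GluRS (347050) had 128 and 124 RPKM in acetone and 112, 102 and 103 RPKM in GR24 (-0.26 ± 0.07, adjusted p = 0.0118, edgeR). The organelle GluRS (73056) did not pass (-0.05 ± 0.14, adjusted p = 0.897, edgeR).

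Of the 6 factors that rose at 1 h, 5 were initiation factors and 1 was a release factor of the organelle type. DESeq2 called 3 of the 6, without eIF1A, eIF4E model 77710 and the release factor. Of the 8 models of the scaffold eIF4G family, only 347831 passed. It had 259 and 254 RPKM in acetone and 301, 298 and 320 RPKM in GR24 (0.26 ± 0.06, adjusted p = 0.0022, edgeR). The other eIF4G family models had log2 fold changes from -0.94 to 0.13, most of them negative. An alternative initiator tRNA carrier, eIF2A (145797), had 173 and 166 RPKM against 201, 204 and 205 RPKM (0.27 ± 0.07, adjusted p = 0.00688, edgeR). In eIF4G 347831 and eIF2A every GR24 library was above both acetone libraries. The changes of eIF1, eIF1A (121695) and eIF4E model 77710 were 0.23, 0.25 and 0.29, and that of a release factor of the ICT1 type (308841), known in human mitochondria for rescuing stalled ribosomes, was 0.56 ± 0.18. The other eIF4E family models did not pass. Without acetone replicate 2 or replicate 3, 3 in place of 13 of the 178 models passed at 1 h, and in both cases the 6 factors and GluRS did not pass.

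At later times fewer members passed. At 2 d, eIF2 beta and eIF3j were lower in GR24, 2 of 71 factors, where 2.15% of all models passed, 1.02% as higher and 1.13% as lower. The level of eIF2 beta was 292, 319 and 267 RPKM in acetone and 240.0 and 219 RPKM in GR24 (-0.36 ± 0.09, adjusted p = 0.0431, edgeR). For eIF3j (349748), a loosely bound subunit, it was 313, 378 and 326 RPKM against 273 and 246 RPKM (-0.39 ± 0.09, adjusted p = 0.0339, edgeR). Neither gene's groups overlapped. DESeq2 called eIF3j only. The eIF2 beta call was lost whichever library was left out, and the eIF3j call without acetone replicate 3 or GR24 replicate 3. Mitochondrially encoded models were higher in GR24 at this time, 6 of 14 tested, with a median of 1.80. Of 45 synthetases, edgeR called 0 and DESeq2 0 at 2 d, and 2 had an unadjusted p under 0.05.

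At 7 d, edgeR called 0 of 44 synthetases and 0 of 70 factors, where 6.43% of all models passed, 4.31% as higher and 2.12% as lower. DESeq2 also called 0, and 2 synthetases and 3 factors had an unadjusted p under 0.05. Without GR24 replicate 3, 2 factors passed at 7 d. At 14 d, 1 of 44 synthetases passed and, by edgeR and by DESeq2, 0 of 68 factors, 7 of which had an unadjusted p under 0.05 (3.25% of all models passed, 1.29% as higher and 1.95% as lower). The synthetase was CysRS, with 82.6, 81.9 and 86.1 RPKM in acetone and 73.3, 73.9 and 74.4 RPKM in GR24. Its groups did not overlap (-0.18 ± 0.05, adjusted p = 0.038, edgeR), and the call was lost when any of the 6 libraries was left out, with adjusted p from 0.0676 to 0.183.

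The test of whether the GR24 effect differed between times called 7 of the 117 synthetases and factors tested, where 10.1% of all models passed. They were TyrRS 23361 (adjusted p = 0.00313, edgeR), eIF2A (0.00723), eIF4G 347831 (0.0079), eIF2B delta (339242, 0.0179), the ICT1 type factor (0.0239), TrpRS (0.0389) and an eIF5B model (86538, 0.0445). The GR24 effect on TyrRS was 0.62, 0.88 and 0.77 higher on the log2 scale at 2 d, 7 d and 14 d than at 1 h. In GR24, TyrRS had 42.2 and 33.7 RPKM at 2 d, within the range of acetone or below it (40.9, 42.4 and 43.9 RPKM). The effect on eIF4G was 0.31, 0.37 and 0.31 lower at the later times than at 1 h. Without acetone replicate 2 or 3 at 1 h, 5 and 2 in place of 11 of the 178 models passed, and TyrRS was lost without replicate 3.

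**Figure D4:**
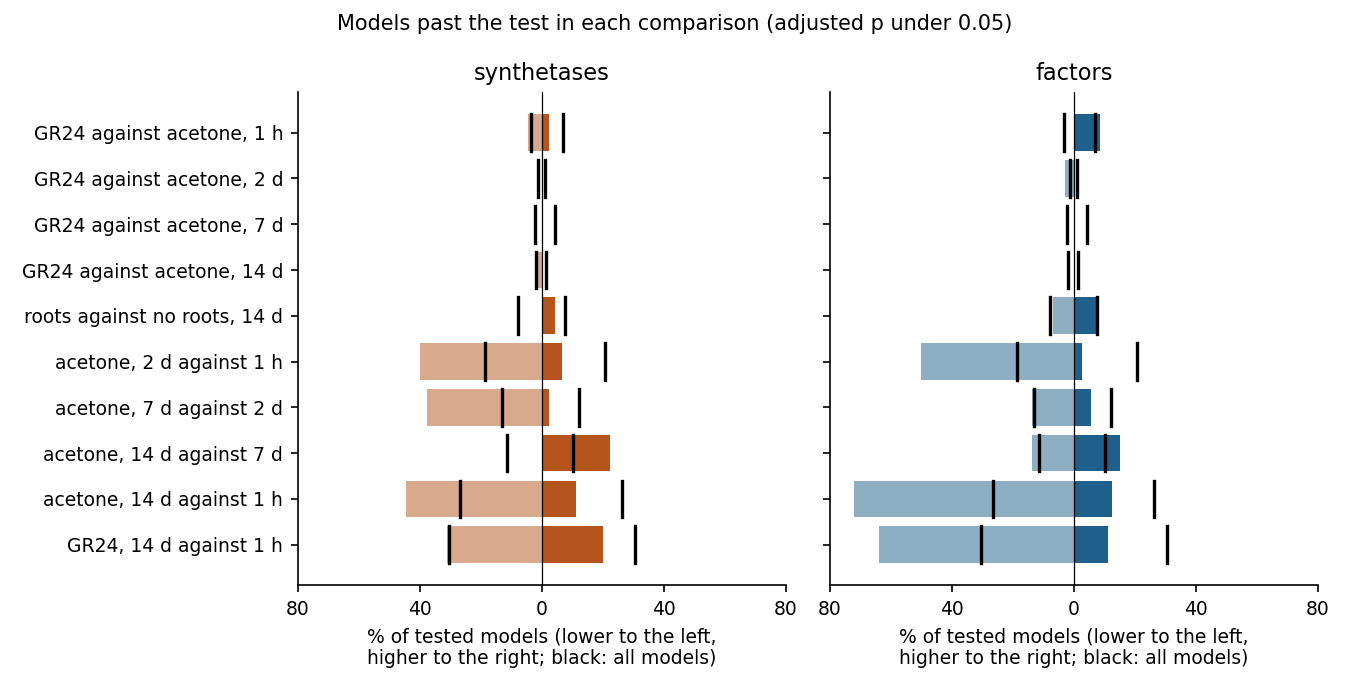
Share of tested synthetases (left) and factors (right) past the test in each comparison, lower to the left and higher to the right of 0, with the share over all models as black lines. In acetone at 14 d against 1 h, 52 of 72 factors and 20 of 45 synthetases were lower, beyond the line for all models at 26.7%, whereas no synthetase was lower at 14 d than at 7 d.

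With roots, 13 synthetases and factors passed the test, 11 of them factors. In the libraries titled as root exudates, 6 of 72 factors were higher and 5 lower than in those titled as controls, and 2 of 45 synthetases were higher and none lower by edgeR (15.2% of all models passed, 7.46% as higher and 7.75% as lower). By DESeq2, 9 factors and 2 synthetases passed, and 5 synthetases had an unadjusted p under 0.05 in edgeR. The column headings of the deposited table name the 2 groups the other way round; titles were followed, and each direction in this comparison reverses if the headings are right. The median was 0.01 for factors and -0.01 for synthetases.

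By the titles, the largest called rise was in the eIF4E family model 348654, and the largest called fall in eIF4G 4059 (-1.23 ± 0.29), which would be the largest rise if the headings are right. The eIF4E model had 141 and 128 RPKM without roots and 243, 206 and 209 RPKM with roots (0.71 ± 0.09, adjusted p = 0.000668, edgeR). ArgRS had 144 and 139 RPKM without roots and 199, 197 and 198 RPKM with roots (0.49 ± 0.07, adjusted p = 0.000887, edgeR). In both the root libraries stood clear of the controls, and both calls held without any single library. The organelle ProRS (134278) rose from 48.5 and 51.6 RPKM to 69.2, 66.5 and 60.4 RPKM (0.39 ± 0.10, adjusted p = 0.0183, edgeR).

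By the titles, eIF3a and eIF3e, subunits of 1 complex, went in opposite directions with roots, each the same way as with time. If the headings are right, each went against its direction with time. The level of eIF3a was 544 and 579 RPKM without roots and 794, 687 and 684 RPKM with roots (0.37 ± 0.08, adjusted p = 0.0114, edgeR). That of eIF3e was 86.3 and 80.3 RPKM and 61.7, 65.7 and 66.2 RPKM (-0.36 ± 0.08, adjusted p = 0.0143, edgeR). The other 8 eIF3 subunits did not pass. The mitochondrial class I release factor 20334 rose from 44.6 and 45.1 RPKM to 63.6, 66.6 and 56.4 RPKM (0.48 ± 0.12, adjusted p = 0.02, edgeR). At the other end of the message, eRF1 had 119 and 125 RPKM without roots and 89.6, 105 and 102 RPKM with roots (-0.30 ± 0.08, adjusted p = 0.0363, edgeR).

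The remaining calls were eIF2B delta (0.41), a density-regulated protein of the DENR type (322810, 0.34), which in mammals acts in reinitiation, and eIF4G 347831 (0.22) as higher. Lower were eIF2D (28099, -0.64) and Hbs1/eEF1A-like 73901 (-0.37). Without control replicate 1 or 2, 7 in place of 24 of the 178 models passed, and 14 without root replicate 2. Mitochondrially encoded models were higher with roots, 4 of 11 tested, with a median of 1.96.

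**Figure D5:**
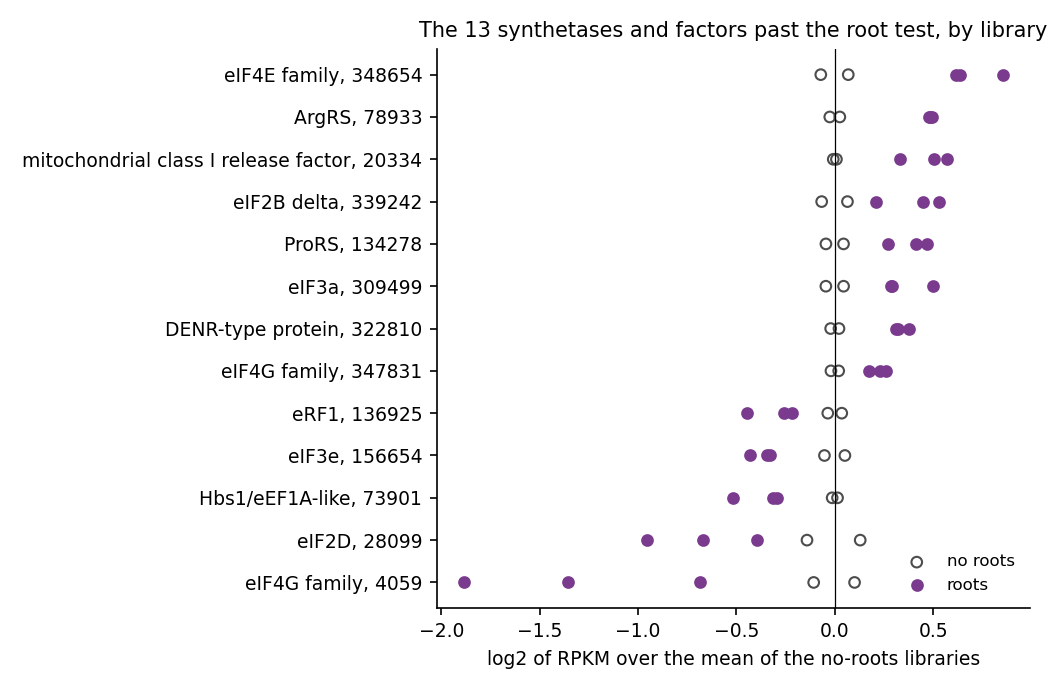
Log2 of RPKM over the mean of the 2 no-roots libraries, for the 13 synthetases and factors past the root test, with groups named by their titles. Open circles are no-roots libraries and filled circles root libraries. The 13 were chosen by the test on these same libraries, so a gap between the groups adds no support.

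Levels also differed between the 2 sets of cultures, which differ in medium, spore number and support and were not compared by a test. The factor sum was 8982 ± 163 RPKM in the no-roots controls (n = 2) and 11542 in acetone at 14 d, and its ratio to the synthetase sum was 3.38 against 4.21. An eIF5B model of 1335 bases (338357) had 172 and 191 RPKM without roots and 28.6 to 73.1 RPKM in the 20 time-course libraries. TyrRS 23361 had 78.3 to 86.5 RPKM in the root set and 13.4 to 43.9 RPKM in the time course.

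Neighbouring lists, chosen by keyword, give the setting. In acetone at 14 d against 1 h, 26.7% of all models tested were lower and 26.3% higher. In that contrast, 73 of 89 cytosolic ribosomal proteins were lower and 5 higher, with a median of -0.83, beyond the medians of factors and synthetases. Mitochondrial ribosomal proteins had 7 lower and 5 higher of 20 (median -0.10), ribosome biogenesis 21 lower and 7 higher of 45 (-0.25), and tRNA processing and modification 17 lower and 10 higher of 50 (-0.08). Of 66 amino acid synthesis models 25 were lower and 17 higher (-0.11), and of 13 kinases of translation factors 4 were lower and 6 higher (0.21). With GR24 at 1 h, where 10.4% of all models passed and 7.05% were higher, 16 of 65 amino acid synthesis models passed, 11 as higher, and 3 of 88 ribosomal proteins. These 2 counts were not recomputed without single libraries.

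Among the 54 other matches, 21 hold a ubiquitin-associated domain whose domain name mentions an elongation factor, 11 only the class I synthetase site, 5 an eIF-2C and 7 an eIF-4G description without the eIF4G core domain, 2 a YbaK domain and 8 another text. The largest GR24 effect of all 178 models was here, in a type 11 methyltransferase (347246) that matched only by the short synthetase site. It had 24.7 and 20.1 RPKM in acetone and 145, 137 and 123 RPKM in GR24 at 1 h (2.59 ± 0.11, adjusted p = 4.81e-17, edgeR). In the time course its other libraries ranged from 8.74 to 22.9 RPKM. At 1 h, 3 of 48 tested other matches were higher and 1 lower, against 7.05% and 3.39% of all models. With roots, by the titles, 4 of 50 were higher and 7 lower, against 7.46% and 7.75% of all models. The eIF-2C models 202272 and 21051 shared 100% and 97.6% of their reads with other models, so their values are uncertain. Of the 178 models, 3 had no read in any library, among them an eRF1-like fragment of 162 bases (28865).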

How the data were processed

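RNA from germinating spores was sequenced as poly-A selected, paired-read libraries, per the labels' protocols. The deposited counts are total and unique gene reads per gene model, per the file headers, and the aligner is not given in the sources used here. The deposited RPKM of the authors were total gene reads divided by model length and library total, per the file headers. The authors' signed fold change, held as a score, and its false discovery rate p-value come from Baggerley's test, per the file headers, and were not used here.

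Of 30 labelled samples, 25 libraries in 5 tables had a count column, and the other 5 are not analysed here. Levels are RPKM recomputed from total gene reads with TMM-scaled library sizes. Tests used edgeR 4.0.16 in R 4.3.3 (filterByExpr, TMM, robust quasi-likelihood, Benjamini-Hochberg over all models tested). Each treatment comparison used its own libraries, and time contrasts and the GR24 by time interaction used the 20 time-course libraries together. Scripts were tested on simulated counts. Alternatives were RLE size factors, DESeq2 1.42.0, no filter on low counts, unique gene reads, a replicate block, leaving out each library, and 1 fit of the whole time course for the GR24 comparisons. The contrast of times in GR24 was added after the acetone result was seen. Reads matching several models were 0.1217% to 1.092% of a library.

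The members and lists were chosen with earlier results of these data known. Named genes were drawn from the up to 3 largest rises and falls past each test per class and the 5 highest models per class. They were also drawn from members past 3 or more tests or the interaction test, and the highest model of each role. Not every model that qualified is named. Other named models were picked after their values were seen.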

Additional observations from a re-analysis of the deposited data

Results flagged for a closer look

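In 11 of the 178 models the effect of GR24 differed between the 4 collection times by the interaction test in edgeR, where 10.1% of all models passed. The smallest adjusted p, 5.6e-13, belonged to the type 11 methyltransferase with a synthetase site (347246), whose GR24 effect at 2 d, 7 d and 14 d minus that at 1 h was -2.69, -2.40 and -3.16 on the log2 scale. Among synthetases, TyrRS 23361 (adjusted p = 0.00313) and TrpRS 344865 (0.0389) passed in edgeR, the first with a GR24 effect higher at later times than at 1 h and the second with a lower one. Among initiation factors, eIF2A (adjusted p = 0.00723), eIF4G 347831 (0.0079) and eIF5B 86538 (0.0445) had lower effects at all 3 later times in edgeR, whereas eIF2B delta (0.0179) had higher ones. The ICT1 type release factor had an adjusted p of 0.0239 in edgeR. The eIF-2C model 21051 (adjusted p = 0.00268, edgeR), which shares most of its reads with other models, and the ubiquitin-associated domain models 341803 (0.0191) and 337309 (0.0434) complete the set.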

How the results depend on the processing

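Leaving out 1 library gave 3 to 16 of the 178 models past the test (13 with all) for GR24 at 1 h, 0 to 2 (3) at 2 d, 0 to 2 (0) at 7 d, 0 to 1 (2) at 14 d and 7 to 31 (24) for roots. In acetone it gave 55 to 76 (79) for 2 d against 1 h, 28 to 51 (52) for 7 d against 2 d, 21 to 40 (50) for 14 d against 7 d and 91 to 108 (116) for 14 d against 1 h. It gave 101 to 107 (109) for 14 d against 1 h in GR24 and 2 to 16 (11) for the interaction. Without the filter on low counts, 5 passed at 2 d and 6 at 14 d. DESeq2 called 0 at 14 d, and 1 fit of all time-course libraries called 1. With the replicate block 1 passed at 2 d, 1 at 14 d, 12 at 1 h and 17 with roots. Libraries with the same replicate number correlated by -0.0846 to 0.0183 in their deviations from the group mean. With 2 or 3 libraries a group, these values cannot tell whether equal numbers mark paired cultures. No replicate block could be fitted at 7 d. Alternatives were followed for the up to 3 largest rises and falls past each test per class, the treatment calls and the interaction calls. Other named results were not followed one by one. No followed fold change changed direction under an alternative. For the interaction only the adjusted p was followed. Over all pairs of a followed result and an alternative, the call was kept in 817 and lost in 172. Where an acetone or no-roots group is reduced to 1 library, that library is assumed to vary like the others. The causes were not tested. With 2 or 3 libraries a group, small changes may go undetected.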
